A study of Mus musculus with 12 samples.

Results

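Tachykinins are short signalling peptides cut from larger precursors and stored in dense core granules of neurons. The gene Tac1 encodes the precursor of substance P and neurokinin A, and Tac2 encodes the precursor of neurokinin B. Their receptors are G protein-coupled receptors that signal mainly through Gq proteins, phospholipase C and release of calcium from internal stores. Tacr1 encodes the NK1 receptor, preferred by substance P, Tacr2 the NK2 receptor, preferred by neurokinin A, and Tacr3 the NK3 receptor, preferred by neurokinin B. In the adult hypothalamus, neurokinin B and its receptor are known for their role in the neurons that control release of gonadotropins.

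These 5 genes were taken by name out of 19751 genes that could be named on the array, and 6 probes stood for them, 2 of which were for Tacr2. They were chosen with their signals in all 4 groups known, so their levels and differences are given as a description and without a test. CD-1 mouse embryos were electroporated in the medial telencephalon at E11.5 with siRNAs or a plasmid and with a vector for nuclear EGFP, per the labels, and cells positive for GFP were sorted 24 hours later, at E12.5 (days of embryonic development). The 4 groups, with 3 independent replicates each, received siRNA set 1 against Dmrt3 and Dmrta2, siRNA set 2 against the same genes, a plasmid for overexpression of Dmrta2, or control siRNAs. Dmrt3 and Dmrta2 are transcription factors of the DM domain family that act in patterning of the dorsomedial telencephalon. Every comparison with a control used the control siRNAs, since the labels name no empty plasmid, and the number of embryos behind a replicate is not given in the sources used here.

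Each replicate was hybridised to 1 one-colour array. The 12 arrays lay on 3 slides, each with 1 array of every group, and the slide number was the replicate number. Each group held the same position on every slide, so position and group cannot be told apart. The 75th percentile of the spot signal ran from 571.5 to 1143 units, well above background were 67.1% to 72.2% of the spots, and no spot was saturated. Emx1, Emx2 and Lhx2, transcription factors that mark progenitors of the dorsal and medial telencephalon, were well above background on all 12 arrays. The siRNA targets were checked first. Dmrt3 lay at 45.8% to 91.3% of the array's 75th percentile under set 1 and 57.1% to 97.3% under set 2, against 104% to 160% in the control siRNAs, a log2 difference of -0.90 ± 0.26 for both sets averaged (standard error, SE) with a limma adjusted p of 0.162, or 0.028 with the slide as a block. Dmrta2 differed by -0.46 ± 0.14 under both sets averaged (adjusted p = 0.207, or 0.113 with the slide as a block). Set 1 gave -0.61 ± 0.16 and set 2 gave -0.31 ± 0.16, with 1 of 3 set 2 arrays below all controls. Under overexpression Dmrta2 differed by -0.49 ± 0.16 (adjusted p = 0.595, or 0.330 with the block). Whether its probe reads the plasmid's transcript is not given in the sources used here, so that value does not check the overexpression.

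The promoters are shown for the ligand and receptor genes whose signals differed together, Tac2 with Tacr3 under the siRNAs and Tac1 with Tacr1 under overexpression. Each runs from 250 bases before to 50 bases after the start of the gene in RefSeq (build GRCm38.p6, plus strand), at chr10:127724228-127724527 for Tac2, chr3:134828757-134829056 for Tacr3, chr6:7554811-7555110 for Tac1 and chr6:82402225-82402524 for Tacr1. Capitals mark the E-box CANNTG, a motif of basic helix-loop-helix factors, and CGTCA, or TGACG on the other strand, a motif of cyclic AMP response elements.
Tac2: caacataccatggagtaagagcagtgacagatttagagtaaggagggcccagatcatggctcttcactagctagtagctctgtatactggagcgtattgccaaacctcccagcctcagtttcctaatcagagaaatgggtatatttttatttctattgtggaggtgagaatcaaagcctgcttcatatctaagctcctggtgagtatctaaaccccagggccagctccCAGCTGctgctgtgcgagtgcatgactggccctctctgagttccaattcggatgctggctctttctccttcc
Tacr3: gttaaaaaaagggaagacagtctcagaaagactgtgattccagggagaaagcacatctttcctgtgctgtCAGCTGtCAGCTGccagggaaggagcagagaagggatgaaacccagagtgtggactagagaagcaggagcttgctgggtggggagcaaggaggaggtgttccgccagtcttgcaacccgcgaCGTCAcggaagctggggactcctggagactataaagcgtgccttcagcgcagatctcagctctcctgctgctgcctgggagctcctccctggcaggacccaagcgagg
Tac1: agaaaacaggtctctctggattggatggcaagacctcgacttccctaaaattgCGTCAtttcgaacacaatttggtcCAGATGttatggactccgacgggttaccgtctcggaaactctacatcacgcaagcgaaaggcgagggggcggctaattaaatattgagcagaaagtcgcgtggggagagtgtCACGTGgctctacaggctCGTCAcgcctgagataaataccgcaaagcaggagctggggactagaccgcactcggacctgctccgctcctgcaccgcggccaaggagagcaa
Tacr1: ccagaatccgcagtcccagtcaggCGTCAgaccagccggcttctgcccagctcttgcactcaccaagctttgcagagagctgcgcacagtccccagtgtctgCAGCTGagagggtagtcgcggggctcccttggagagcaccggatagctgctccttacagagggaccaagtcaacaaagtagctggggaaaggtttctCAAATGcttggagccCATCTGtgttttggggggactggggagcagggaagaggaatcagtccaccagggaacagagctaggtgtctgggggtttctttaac

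Tac2 held 1 E-box, 22 bases before the start, and no CGTCA motif. Tacr3 held 2 adjoining E-boxes, 180 and 173 bases before the start, a CGTCA motif at 58 bases, and a TATAAA motif 29 bases before the start. Tac1 held 2 E-boxes and 2 CGTCA motifs, and Tacr1 held 3 E-boxes and 1 CGTCA motif. An E-box was present in 72.1% of 27025 promoters of the same length, CGTCA in 21.0% and TATAAA, on either strand, in 14.2%. The letters ACANTGT, the core of the sequence bound by DM domain proteins, which reads the same on both strands, were in 7.59% of promoters and in none of these 4. Among the 5 genes they were found in Tacr2, 55 bases before its start. These matches describe letters only and draw nothing about binding. The GC content was 48.3% for Tac2, 57.0% for Tacr3, 54.0% for Tac1 and 57.7% for Tacr1, with a median of 52.7% over all promoters.

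Both sets of siRNAs went with higher Tac2 and Tacr3 signals, the neurokinin B precursor and its receptor, and overexpression of Dmrta2 went with higher Tac1 and Tacr1 signals, the substance P precursor and its receptor. The signal is given as percent of the array's 75th percentile, which sets each array to the same scale, and each gene is compared only with itself, because probes differ in how brightly they bind. The folds depend on the background correction: a normexp background raises dim signals by an offset. With it the folds of Tac2 and Tacr3 for both siRNA sets averaged, and of Tac1 and Tacr1 under overexpression, were smaller. Those values stand beside the main ones, and those of Tac2 and Tacr3 for each siRNA set are in the closing section. In bulk RNA of sorted cells, fewer cells that hold a transcript and less transcript per cell cannot be told apart.

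**Figure D1:**
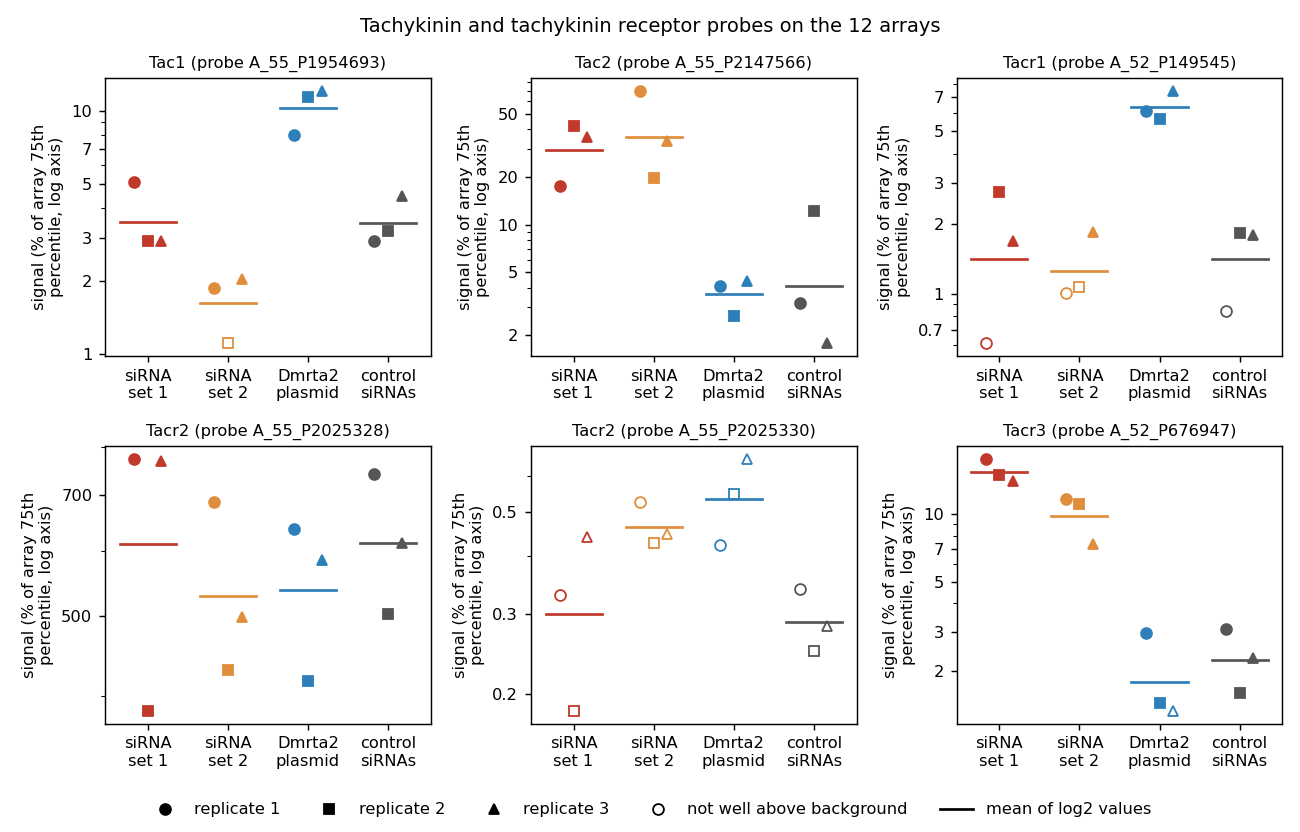
Signal of each of the 6 probes in percent of the 75th percentile of its array (log axis), by group, with replicates as circle, square and triangle and a bar at the mean of the log2 values. Open symbols are spots not well above background. The 6 siRNA arrays lie above the 3 control arrays for Tac2 and Tacr3, and the 3 Dmrta2 overexpression arrays lie above them for Tac1 and Tacr1.

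Tac2 was well above background on all 12 arrays. Its signal was 17.5%, 41.7% and 35.6% of the 75th percentile on the 3 arrays of siRNA set 1, 69.7%, 19.6% and 33.7% under set 2, 4.06%, 2.64% and 4.42% under Dmrta2 overexpression, and 3.20%, 12.1% and 1.78% in the control siRNAs. All 6 siRNA arrays lay above all 3 control arrays, with the lowest siRNA array at 17.5% against the highest control array at 12.1%. The mean log2 level was -1.76 ± 0.67 under set 1, -1.48 ± 0.92 under set 2, -4.79 ± 0.40 under overexpression and -4.61 ± 1.42 in controls (SD, n = 3 each). The log2 difference for both siRNA sets averaged was 2.99 ± 0.58 (SE), or 7.95-fold, with 2.85 ± 0.67 for set 1 and 3.13 ± 0.67 for set 2. With the normexp background the average was 1.66, or 3.15-fold. Within slides 1, 2 and 3, both sets averaged gave 3.45, 1.24 and 4.29. Slide 2 holds the control array of 12.1%, which stood above the other 2 control arrays. Without that array the difference was 3.77, or 13.7-fold, and without the third control array, the dimmest, it was 2.39, or 5.24-fold. Those arrays moved the fold under set 1 to 12.4 and 4.76, against 7.23 with all 3, and under set 2 to 15.0 and 5.76, against 8.75. Overexpression gave -0.18 ± 0.67, and the slides gave 0.34, -2.20 and 1.32, so its arrays lay among the controls. Without the second control array that value was 0.60, and without the third it was -0.78, so it has no settled direction. Between the siRNA sets the ranges overlapped, with a difference of 0.28 for set 2 minus set 1, which ran from -0.20 to 0.71 when 1 array was left out.

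Tacr3, the neurokinin B receptor, was well above background on 11 of 12 arrays, missing it only on the third overexpression array. Its signal was 17.6%, 14.9% and 14.0% under set 1, 11.7%, 11.1% and 7.36% under set 2, 2.94%, 1.45% and 1.33% under overexpression, and 3.07%, 1.59% and 2.28% in control siRNAs. The 4 groups fell into a high pair, the siRNA sets, and a low pair, overexpression and control, with no overlap between the pairs. The log2 level averaged -2.70 ± 0.17 under set 1, -3.35 ± 0.36 under set 2, -5.81 ± 0.63 under overexpression and -5.48 ± 0.47 in controls (SD, n = 3 each). Both siRNA sets averaged differed by 2.46 ± 0.28 (SE), or 5.51-fold, with 2.22, 3.01 and 2.15 within the slides. Leaving out 1 array at a time kept this value between 2.22 and 2.69, and the normexp background gave 0.89, or 1.85-fold. Set 2 lay below set 1 by 0.65 on the log2 scale, with -0.59, -0.43 and -0.93 within slides, and the 2 sets did not overlap. Overexpression differed from control by -0.33 ± 0.33 with overlapping arrays, and by 0.02 with the normexp background.

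Other genes showed non-overlap of this kind too. Of 15373 genes tested, 506 (3.29%) had all 6 siRNA arrays above all 3 control arrays, as Tac2 and Tacr3 did. How many of these also had them above all overexpression arrays, as Tac2 and Tacr3 did, was not counted. Against the same controls, 7.48% of genes had all set 1 arrays above and 10.3% all set 2 arrays above, and 6.27% had all set 2 arrays below all set 1 arrays, as Tacr3 and Tac1 did. The comparisons with control share the same 3 control arrays, so a control array that stands apart enters each of them.

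**Figure D2:**
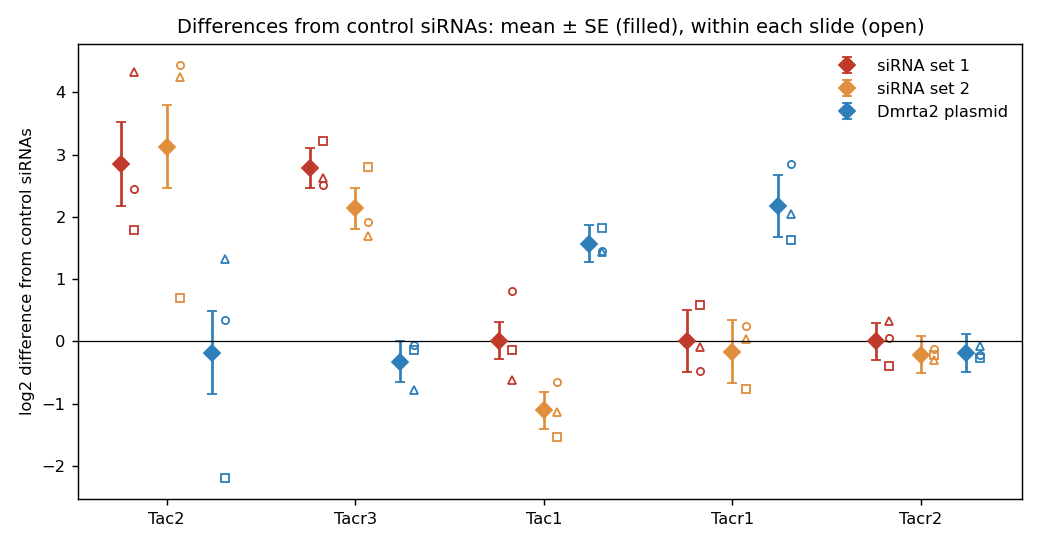
Log2 difference from control siRNAs for each gene, as mean ± SE from the fit over all 12 arrays (filled diamonds, 3 arrays a group) and within each slide (open symbols), for siRNA set 1, siRNA set 2 and Dmrta2 overexpression. Tac2 under siRNAs spreads from 0.70 to 4.44 over slides, while Tacr3 stays between 1.69 and 3.23.

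**Figure D3:**
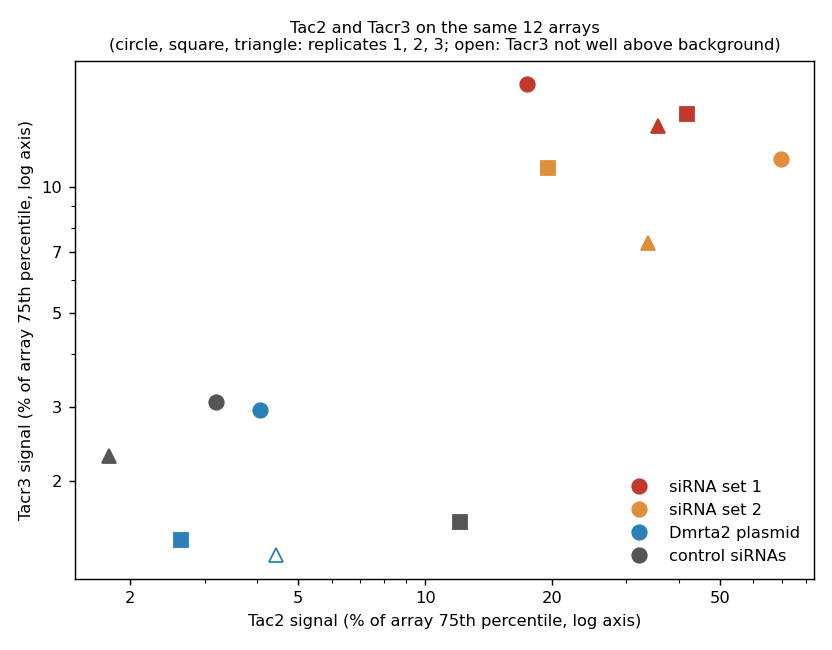
Tac2 signal against Tacr3 signal on the same 12 arrays, in percent of the array's 75th percentile (both axes log). The 6 siRNA arrays form an upper right cluster, and the overexpression and control arrays a lower left one. Because the arrays fall into 2 clusters, no correlation is given.

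The precursor of substance P went another way. Tac1 was well above background on 11 of 12 arrays, missing it on the second set 2 array. Its signal was 5.10%, 2.91% and 2.91% under set 1, 1.86%, 1.1% and 2.04% under set 2, 7.98%, 11.4% and 12.1% under overexpression, and 2.93%, 3.21% and 4.46% in controls. Overexpression arrays lay above all control arrays, set 2 arrays below all of them, and set 1 arrays among them. Mean log2 levels were -4.83 ± 0.47 under set 1, -5.95 ± 0.48 under set 2, -3.28 ± 0.32 under overexpression and -4.85 ± 0.32 in controls (SD, n = 3 each). Overexpression differed by 1.57 ± 0.30 (SE), or 2.97-fold, with 1.45, 1.83 and 1.44 within slides, and by 0.65, or 1.57-fold, with the normexp background. Set 2 differed from control by -1.11 ± 0.30, with -0.65, -1.54 and -1.13 within slides and -0.28 with the normexp background, while set 1 differed by 0.01. Set 2 also lay below set 1 by 1.12 on the log2 scale, without overlap.

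Tacr1, the substance P receptor, was a dim probe, well above background on 8 of 12 arrays. Those were 2 of 3 under set 1, 1 of 3 under set 2, 3 of 3 under overexpression and 2 of 3 in controls. Its signal was 0.611%, 2.74% and 1.68% under set 1, 1.00%, 1.07% and 1.84% under set 2, 6.12%, 5.66% and 7.45% under overexpression, and 0.846%, 1.83% and 1.80% in controls. All 3 overexpression arrays were above all other arrays, and the siRNA and control arrays overlapped. Overexpression differed from control by 2.18 ± 0.50 (SE), or 4.53-fold, with 2.85, 1.63 and 2.05 within slides. With arrays not well above background set to the lowest signal that was, the difference was 1.89, and with the normexp background it was 0.66, or 1.58-fold. Both siRNA sets averaged differed by -0.08 ± 0.43, and from -0.44 to 0.22 when 1 array was left out. Tac1 and Tacr1 were among 911 genes (5.93%) whose 3 overexpression arrays all lay above the 3 control arrays, and Tac1 was among the 1185 genes (7.71%) whose set 2 arrays all lay below them. The share of genes whose overexpression arrays lay above all other arrays, as those of Tacr1 did, was not counted.

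The NK2 receptor gene had 2 probes that disagreed. One was well above background on all 12 arrays, and its signal was 774%, 384% and 770% of the 75th percentile under set 1, 686%, 431% and 499% under set 2, 638%, 417% and 585% under overexpression, and 744%, 503% and 613% in controls. The other was not well above background on any array. The bright probe overlapped between all groups. Both siRNA sets averaged differed from control by -0.11 ± 0.26 (SE), from -0.25 to 0.06 when 1 array was left out, and overexpression by -0.19 ± 0.30. Which of the 2 probes follows the Tacr2 transcript was not tested, so these signals are given as those of the probes. The remaining tachykinin gene, Tac4, the precursor of hemokinin, was well above background on none of 11 arrays. Its spot on the second overexpression array carried an outlier flag and was left out. Mrgprb2, a mouse mast cell receptor that substance P can activate, passed background on 1 array and Mrgpra1, a related receptor, on none.

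By mean level, and with steps inside the spread carrying no settled order, the order of groups was set 2, set 1, control, overexpression for Tac2, and set 1, set 2, control, overexpression for Tacr3. For Tacr3 the steps of 0.65 between the sets and 2.14 between set 2 and control were larger than the SD of either neighbour, and the step of 0.33 between control and overexpression was not. For Tac2, only the step between set 1 and control, of 2.85, exceeded the spread of its neighbours, while the steps between the siRNA sets (0.28) and between control and overexpression (0.18) did not. For Tac1 the order was overexpression, set 1, control, set 2, with steps of 1.56, 0.01 and 1.11 on the log2 scale, and set 1 and control overlapped. For Tacr1 overexpression stood 2.17 above set 1, and set 1, control and set 2 lay within 0.17 of each other, inside their spread.

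Genes of the machinery that makes, breaks down and responds to tachykinins were put to limma's moderated test on all 15373 genes. It used Benjamini-Hochberg adjustment and a threshold of 0.05, two-sided. The lists of this machinery, of other peptide systems and of the 2 targets held 94 measured genes. At most 0.943% of all genes passed in any comparison, so few passes in these lists are no result about the machinery. None passed for both siRNA sets averaged, where 108 genes (0.703%) of the array did, nor for set 1, where 33 (0.215%) did, nor for overexpression, where 43 (0.28%) did, nor between the sets, where 12 (0.0781%) did. At an unadjusted p under 0.05 there were 14 list genes (14.9%) for both sets averaged, against 12% of all genes, and 13 (13.8%) for set 1, against 9.96%. There were 18 (19.1%) for set 2, against 12.8%, 9 (9.57%) for overexpression, against 4.48%, and 11 (11.7%) between the sets, against 9.75%. These shares are descriptions of lists chosen with earlier results known. Under set 2, where 145 genes (0.943%) passed, 1 list gene did. That gene was Rgs16, a regulator that speeds the switching off of Gq and Gi proteins. It fell by 0.63 ± 0.12 on the log2 scale (adjusted p = 0.048), where 0.28% of genes were called lower. Within slides it differed by -0.49, -0.76 and -0.63. Its 3 set 2 arrays lay below all controls, as did those of 7.71% of all genes. Rgs16 passed in none of the 12 fits that left out 1 array, and its adjusted p over all alternatives ran from 0.041 to 0.171.

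With the slide as a block, 3 of the 94 list genes passed under set 2, where 2.35% of all genes did, 2 for both sets averaged (1.52% of all genes) and 1 under set 1 (0.748%), so these counts lay near the share over the array. None passed under overexpression (0.364%) or between the sets (0.241%). Under set 2 these were Rgs16, Rgs2, another brake on Gq signalling, at -0.75 ± 0.17 (adjusted p = 0.044 with the block), and Cckar, a cholecystokinin receptor, at -0.63 ± 0.15 (adjusted p = 0.043 with the block). For both sets averaged they were Cckar, at -0.60 ± 0.13 (adjusted p = 0.038 with the block), and Dmrt3. Rgs2 and Cckar were not past the threshold without the block. Over all alternatives the adjusted p of Rgs2 under set 2 ran from 0.044 to 0.223, that of Cckar from 0.043 to 0.314 under set 2 and from 0.038 to 0.339 for both sets averaged, and each passed under the block alone.

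The processing enzymes and granule proteins had 14 of 15 genes measured, of which 12 lay above control for both siRNA sets averaged, with a median of 0.23, against a median near 0 (-0.00) over all genes. Under overexpression the median was -0.01. Scg5, a chaperone of the proprotein convertase PC2, had 0.46 ± 0.15 under both sets averaged (adjusted p = 0.215), and Cpe, the carboxypeptidase that trims peptide precursors, had 0.18 ± 0.09 (adjusted p = 0.434). Among 9 measured peptidases that can cleave tachykinins, the median was 0.07 under both sets averaged and 0.15 under overexpression, and the values of Thop1 (0.07 ± 0.24) and Prep (-0.17 ± 0.12) did not pass. The 20 genes of Gq and calcium signalling had medians of 0.07 under both sets averaged and 0.04 under overexpression, with Gna11 at 0.28 ± 0.15 and Nfatc4 at 0.18 ± 0.11 under both sets averaged. The 11 genes of receptor desensitisation had medians of -0.03 and 0.22 in the same comparisons. The 17 measured genes of other neuropeptides had medians of 0.07 and 0.26, and 21 measured receptors 0.03 and 0.10, with values for Pomc (0.20 ± 0.12), Nmb (0.06 ± 0.11), Oprl1 (0.26 ± 0.23) and Oprm1 (-0.09 ± 0.25) that did not pass.

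**Figure D4:**
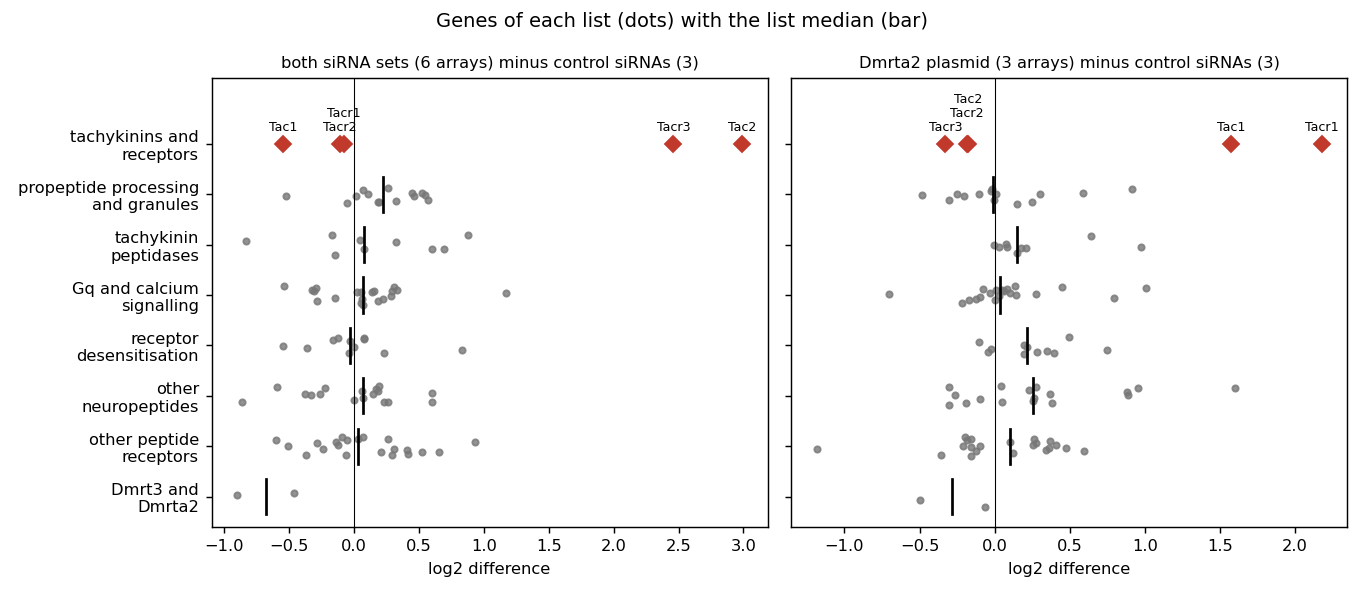
Log2 difference of each gene of each list (dots, vertical jitter only) and list median (bar) for both siRNA sets averaged minus control siRNAs (left) and Dmrta2 overexpression minus control siRNAs (right), beside the 5 tachykinin genes (red diamonds). The tachykinin genes were chosen on these values, and the lists were chosen with earlier results of these data known. The list genes range from -0.90 to 1.17 at left and from -1.18 to 1.60 at right.

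The genes beside the 5 on their chromosomes were compared in the same fit. The 2 nearest tested protein-coding genes on each side gave 20 genes, none overlapping a tachykinin gene. They ran from -0.67 to 0.41 for both siRNA sets averaged and from -0.16 to 0.68 for overexpression. For both sets averaged 1 of them passed, Eva1a beside Tacr1 on chromosome 6, a regulator of autophagy and apoptosis, at -0.67 ± 0.13 (adjusted p = 0.046), where 0.111% of all genes were called lower. It did not pass with the block (adjusted p = 0.0504), passed in 1 of the 12 fits leaving out 1 array, and over all alternatives its adjusted p ran from 0.041 to 0.302. Cxxc4 and Tet2 beside Tacr3 had -0.06 ± 0.14 and 0.20 ± 0.13, and Myo1a and Zbtb39 beside Tac2 had 0.41 ± 0.12 and -0.10 ± 0.16. Dlx5 beside Tac1 had -0.04 ± 0.43 under overexpression.

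Tac2 was nearest in profile to Tox, a nuclear protein of the HMG box family, over all 12 arrays. Likeness was the root mean square difference of the log2 levels, each centred on its mean, over 13817 candidate genes well above background on all arrays. Tox was at 0.76, Pdlim3 at 0.89, Capn5 at 0.94, Plac9a at 1.05 and Tyrp1 at 1.06, with a median of 1.75 over all candidates. A flat profile would score close to the spread of Tac2 itself (SD 1.80 over the 12 arrays), so that median is no yardstick of likeness. Tyrp1 differed by 0.86 ± 0.34 (SE) for both siRNA sets averaged, with 3 of 6 siRNA arrays above all controls. Tacr3 was at 1.01 from Tac2, and 3 genes were nearer to Tac2 than it was. The same measure for Tacr3, which had missed background on 1 array and was therefore added afterwards, gave Tox at 0.51, then Emilin2 (0.69), Pax3 (0.71), Prss23 (0.73) and Tmem255a (0.74), and 58 genes were nearer to it than Tac2. Tox differed by 3.04 ± 0.37 for both siRNA sets averaged and by 0.08 ± 0.42 for overexpression, which are given without a test because it was picked for its likeness to Tac2 and Tacr3.

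**Figure D5:**
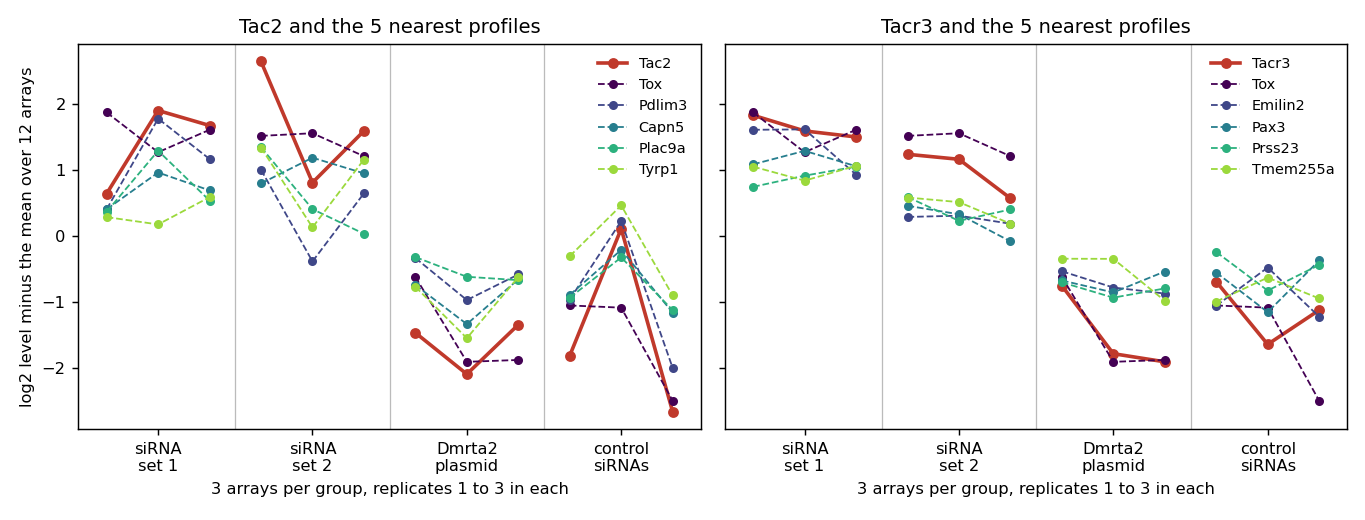
Log2 level minus the mean over the 12 arrays for Tac2 (left) and Tacr3 (right), each in red, with the 5 genes of nearest profile (dashed), by group and replicate. Lines join the replicates of 1 group only to follow a gene, and replicates have no order. Tox stays near both Tac2 and Tacr3.

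Markers of other cell types moved with some of these groups, and their part in the tachykinin values was not tested. Of the 8 microglia and macrophage markers measured, 4 rose for both siRNA sets averaged, where 0.592% of genes did, 4 rose under set 2 (0.664%), none passed under set 1, where 5 had an unadjusted p under 0.05, and 3 rose under overexpression (0.28%). They were Aif1 (1.13 and 1.70), Cx3cr1 (1.20 and 1.61), Tyrobp (1.53 and 1.95) and, for the siRNA average, C1qa (1.79), as log2 differences for both sets averaged and overexpression. C1qa was well above background on 1 of 3 control arrays and on all 3 arrays of each other group. It entered the fit only through those other groups, so its calls in these counts are no support for a difference. With the slide as a block 5 passed for both sets averaged and 6 under set 2, with Fcer1g added in both and C1qb under set 2. The summed level of the 8 markers ran from 1121% to 2585% of the 75th percentile under set 1, 1284% to 2482% under set 2, 1291% to 2409% under overexpression and 1370% to 2457% in controls, but Itgam and Csf1r, which did not pass, made up 93.3% to 98.6% of it on every array. The other 6 markers, split off after their values were seen, summed to 52.6% to 64.2% under set 1, 84.6% to 109% under set 2, 86.2% to 104% under overexpression and 31.7% to 46.8% in controls, so no array of those 3 groups overlapped the controls. Of 47 measured genes of the other marker lists none passed in limma's test without the block. With the slide as a block Pax6, a factor of dorsal progenitors, passed for both siRNA sets averaged (1.06 ± 0.27, adjusted p = 0.038 with the block). Isl1, a factor of the ventral telencephalon, passed for both sets averaged (1.16 ± 0.24, adjusted p = 0.037 with the block) and for set 1 (1.48 ± 0.28, adjusted p = 0.037 with the block). Isl1 was well above background on 4 siRNA arrays and on no overexpression or control array. It entered the fit only through the siRNA groups, so its p-values are no support for a difference. At an unadjusted p under 0.05 there were 10 of the 47 (21.3%) for both sets averaged and 8 (17%) for set 1. There were 9 (19.1%) for set 2 and 7 (14.9%) for overexpression. These lay above the shares of 12%, 9.96%, 12.8% and 4.48% of all genes. Between the sets there were 4 (8.51%), below the 9.75% of all genes. The 4 cortical hem markers summed to 826% to 917% under overexpression and 420% to 719% in controls, without overlap. Rspo1 and Lmx1a made up 98.7% to 99.4% of that sum on every array. The other 2, Wnt2b and Wnt3a, summed to 5.33% to 9.05% under overexpression and 3.09% to 6.08% in controls, with overlap. The 6 markers of Cajal-Retzius cells summed to 399.8% to 457% under overexpression and 233% to 297% in controls. The Cajal-Retzius sums were 290.2% to 356% under set 1 and 145% to 219% under set 2. Nhlh2 and Lhx5, the brightest of the 6 probes, made up 62.1% to 87.1% of that sum. Reln, Calb2 and Lhx1 did not follow the sums of set 2 and overexpression. Their log2 differences from control were 0.84, 0.07 and 0.05 under set 2 and 0.21, -0.02 and -0.03 under overexpression. Under set 1 they were 1.16, 0.65 and 0.27, higher as its sum was. Trp73 had 0.33 under set 1, 0.10 under set 2 and 0.92 under overexpression. None of these values was past the threshold. The 8 markers of the subpallial lineage, the ventral telencephalon, had a median of 0.92 for both siRNA sets averaged and 0.16 for overexpression. No gene of them was past the threshold without the block. Dlx1, Gad1 and Isl1 were not well above background on any overexpression or control array. They entered the fit only through siRNA arrays, so their part in that median and in the marker counts above is a description and no test. The 4 measured mesenchyme and pericyte markers summed to 30.8% to 493% under set 1, 21.2% to 31.7% under set 2, 30.9% to 58.8% under overexpression and 24.0% to 25.2% in controls, with 1 set 1 array far above the rest. The 4 measured erythroid markers summed to 166% to 788% under set 1, 223% to 856% under set 2, 362% to 1105% under overexpression and 241% to 267% in controls.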

How the data were processed

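Cy3-labelled cRNA from 0.1 ug of RNA per sample was measured on one-colour Agilent mouse arrays, per the labels. The deposited spot intensities came from Agilent Feature Extraction (10.5.1.1 in the submitters' processing notes), which subtracted the background and removed spatial trends on each array by itself, with no scaling across arrays, per the file headers. A log2 table deposited by the authors was an alternative. Its scale and centring were not stated, and it followed the scaled scanner values at r of 0.9991 to 0.9998 (column medians -0.13 to 0.10).

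Here log2 signals were set relative to their array's 75th percentile, control spots and outlier spots were left out, and probes were named through their RefSeq accession (26055 of 39429 named). Probes well above background on at least 3 of 12 arrays were kept, and a gene was its probe of highest mean. All genes were fitted with limma 3.58.1 in R 4.3.3 over the 12 arrays (8 residual degrees of freedom) with Benjamini-Hochberg adjustment, and the fit was tested on simulated data. Precision is limited by having 3 arrays per group.

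The 5 genes, the lists and the rule for named genes were chosen with earlier results of these data known. The rule named the 5 genes, every list gene past the threshold and otherwise the 2 of highest mean level, 2 neighbours on each side and the 5 nearest profiles. Rgs2 and Cckar were named after their values were seen. Deviations of same-numbered arrays from their group means correlated at 0.0199 to 0.5997, over 0.1 in 16 of 18 pairs. All 3 pairs were over 0.1 for set 1 with control, overexpression with control and set 2 with set 1, and 2 of 3 for set 2 with control (0.0968 for the lowest), and same-numbered arrays shared a slide. What else they shared is not given in the sources used here.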

Additional observations from a re-analysis of the deposited data

Results flagged for a closer look

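Signals appeared on single arrays for 6 list genes that were left out of the fit, each below background on all 3 control arrays. Mrgprb2, a mast cell receptor, read 8.2 units, Npy2r, a neuropeptide Y receptor, 45.4 units, and Oprk1, the kappa opioid receptor, 9.95 units, all on the second array of siRNA set 2. Npy5r, another neuropeptide Y receptor, read 43.9 units on the third array of set 2. Pcsk1, a convertase of peptide precursors, read 9.81 units on the first array of set 1, and Npr3, a natriuretic peptide receptor, 12.2 units on its second. Each rests on 1 array and has no replicate.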

How the results depend on the processing

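Of the 25 differences of the 5 genes, 15 kept their direction under every alternative, among them all 11 that were over 2 SE from 0. The other 10, none over 0.33 in size, turned under at least 1 alternative. The 5 genes were chosen on these signals and the alternatives reuse the same 12 arrays, so these counts describe the processing and are no test. Tac1 for both siRNA sets averaged, among the 11, had -0.55 ± 0.26 (SE), with 0.07, -0.84 and -0.87 within slides. All 300 values from leaving out 1 array moved by less than 1 SD between replicates, as did 200 values from the other alternatives. The 10 that moved further came from a normexp background with the lowest spots raised, added after seeing the data, whose offset draws dim probes together by construction. Under it Tac2 had 1.655 (both siRNA sets averaged), 1.539 (set 1) and 1.77 (set 2), Tacr3 0.888, 1.066 and 0.7098, Tac1 -0.2777 (set 2), 0.6521 (overexpression) and -0.1661 (set 2 minus set 1), and Tacr1 0.6557 (overexpression). The planned normexp was not run as such, because the estimated background failed on 3 arrays. The list genes called under set 2, 1 in the report, were 0 under normexp, 0 without a filter on dim probes, 0 with the mean of all probes of a gene, and 0 to 0 in fits leaving out 1 array. With the replicate block they were 3, with 2 for both sets averaged and 1 for set 1, and the block changed no call of these lists for overexpression or between the sets. Its calls among the marker genes (Pax6, Isl1, Fcer1g and C1qb) stand in the report. Over all genes the replicate block called 234 (both sets), 115 (set 1), 362 (set 2) and 37 (set 2 against set 1). Normexp called 39 (both sets), 57 (set 2), 26 (overexpression) and 20 (set 2 against set 1). No filter called 37 (both sets), 26 (set 2) and 0 (set 2 against set 1, where 12 had passed), and requiring all 12 arrays above background called 28 for overexpression. Leaving out 1 array gave 17 to 88 (both sets), 4 to 84 (set 1), 10 to 145 (set 2), 19 to 55 (overexpression) and 0 to 12 (set 2 against set 1). The causes were not tested. Signal over background limits Tacr1, well above background on 8 of 12 arrays, and the second Tacr2 probe, above it on none.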
